A study of Mus musculus with 11 samples.

Results

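The 34 genes described here make up the B cell receptor complex and its signalling pathway: the receptor's signalling chains, the surface proteins that tune it, the kinases, adaptors and enzymes that carry its signal, its inhibitors, and the factors it acts on. They were chosen by gene symbol, though with earlier results of these data known, from 20177 genes tested. 33 of them were found under their current symbol and Syk under the older symbol Sykb. All 34 passed the filter on dim probes, and 33 were well above background on all 11 arrays. The exception was Sos1, which was well above background on 3 arrays, namely 2 PCL, 1 MCL and 0 BL arrays.

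RNA of 11 lymph node lymphomas was measured on one-colour arrays. By the tumour origin in the labels, 4 were lymphomas of plasma cells (PCL), 3 of mantle cells (MCL) and 4 of the Burkitt type (BL). All came from Black 6 mice of 1 genotype, c-myc-3'RR/p53+/-, so every tumour carries a Myc transgene under the regulatory region downstream of the IgH genes, which is active in B lineage cells, and is heterozygous for p53. The labels give Mature B cell as the stage of all 11 tumours, also of the plasma cell lymphomas, and give no age, and no normal B cells were analysed here. Each comparison is therefore between lymphoma types and not with a healthy cell. The labels do not say that the tumours came from separate mice, so each p-value rests on how far these samples varied, and that variation may be technical. The 3 types lay on 3 slides, 1 type on each, so lymphoma type and slide cannot be told apart in any result below.

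The B cell receptor is a membrane immunoglobulin paired with the chains CD79A and CD79B. When antigen clusters it, SRC-family kinases (Lyn, Blk) phosphorylate the tails of those chains and recruit the kinase SYK. SYK and BTK, held together with PLCG2 by the adaptor BLNK, make PLCG2 release calcium and diacylglycerol, which act through NFAT factors and through protein kinase C beta (Prkcb), BCL10 and MALT1 on NF-kB. Phosphatases such as SHP-1 (Ptpn6) and SHIP1 (Inpp5d), recruited by CD22 and CD72, damp the signal. Plasma cells secrete their immunoglobulin and are known for low levels of several surface B cell genes, whereas mantle cell and Burkitt lymphomas of patients are known to use receptor signals.

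The promoters of the genes that the results turn on are shown first. RefSeq's promoter table for GRCm38.p6 held 27 of the 34 genes, and the window taken was the 250 bases before the annotated start of the transcript, written in the direction of the gene. Prkcb is shown because it was called in both comparisons with PCL, Ptpn6 and Cd37 because their plasma cell values lay below both other types, Blnk because it holds the other copy of the octamer, and Cd79a as a receptor chain. The windows are chr7:122288875-122289124 on the plus strand for Prkcb, chr6:124738710-124738959 on the minus strand for Ptpn6, chr7:45238840-45239089 on the minus strand for Cd37, chr19:40994222-40994471 on the minus strand for Blnk and chr7:24897247-24897496 on the plus strand for Cd79a. Capitals mark the octamer ATGCAAAT, the letters that Oct factors of B cells are known to bind, and the ETS letters AGGAAGT, each on either strand (ATTTGCAT and ACTTCCT are the same letters read from the other strand).
Prkcb: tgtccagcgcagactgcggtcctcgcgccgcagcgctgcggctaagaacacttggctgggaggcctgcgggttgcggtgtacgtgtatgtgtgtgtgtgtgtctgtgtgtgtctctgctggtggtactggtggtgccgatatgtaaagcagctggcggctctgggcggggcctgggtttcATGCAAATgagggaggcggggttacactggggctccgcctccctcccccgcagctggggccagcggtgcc
Ptpn6: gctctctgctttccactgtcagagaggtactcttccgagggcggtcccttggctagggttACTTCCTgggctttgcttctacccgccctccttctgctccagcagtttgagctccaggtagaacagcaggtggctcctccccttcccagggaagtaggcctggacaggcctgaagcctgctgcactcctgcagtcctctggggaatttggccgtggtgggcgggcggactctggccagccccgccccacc
Cd37: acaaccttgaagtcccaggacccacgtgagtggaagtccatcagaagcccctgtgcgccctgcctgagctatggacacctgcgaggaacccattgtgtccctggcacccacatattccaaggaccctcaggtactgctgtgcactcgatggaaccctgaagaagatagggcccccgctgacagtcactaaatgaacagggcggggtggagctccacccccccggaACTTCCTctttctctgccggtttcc
Blnk: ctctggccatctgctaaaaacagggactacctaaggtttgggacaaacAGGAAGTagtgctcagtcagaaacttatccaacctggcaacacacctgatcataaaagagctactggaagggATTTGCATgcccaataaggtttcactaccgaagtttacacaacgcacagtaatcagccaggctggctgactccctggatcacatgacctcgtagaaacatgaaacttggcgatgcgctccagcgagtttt
Cd79a: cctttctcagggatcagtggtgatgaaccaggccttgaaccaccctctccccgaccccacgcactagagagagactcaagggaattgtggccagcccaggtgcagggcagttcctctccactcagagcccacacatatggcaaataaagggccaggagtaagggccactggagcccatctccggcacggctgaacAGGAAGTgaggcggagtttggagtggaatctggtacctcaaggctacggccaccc
The octamer was found in 2 of the 27 genes (7.41%), Prkcb and Blnk, and in 1.81% of all 27025 genes with such a window. Its first base stood 70 bases before the start of Prkcb and 130 bases before that of Blnk. A gene with several annotated starts had a window at each, and it counted here and below where any of them held the letters. AGGAAGT was found in 14 of 27 (51.9%), against 8.8% of all genes. It stood 190 bases before the start of Ptpn6, 25 before Cd37, 202 before Blnk and 55 before Cd79a. GAGGAA, whose letters overlap those of AGGAAGT, was found in 14 of 27, against 25.9% of all genes. Of the E boxes, CAGGTG was found in 14 of 27, against 19.4%, and CACGTG, the letters that Myc and Max are known to bind, in 3 of 27 (11.1%), against 6.86%. CCCNNGGG, the core of the EBF1 motif, was found in 4 of 27 (14.8%), against 13.4%. These matches are descriptions of the letters in the windows. Of the 2 genes with the octamer, Prkcb was called in both comparisons with PCL and Blnk in none, as given below.

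The most stable difference was a lower signal of Prkcb in plasma cell lymphomas, whereas the receptor chains Cd79a and Cd79b gave no call. In the comparison with MCL, 3 of the 34 genes (8.82%) passed the test, Prkcb, Ptpn6 and Blk, and all 3 were lower in PCL. Over all genes 6.78% passed it, 4.65% in the lower direction. In the comparison with BL, 1 of 34 (2.94%) passed, Prkcb, again lower in PCL, where 0.639% of all genes passed. Between MCL and BL, 0 of 34 passed limma's test and 0 had an unadjusted p under 0.05, where 6.45% of all genes passed and 18.5% had an unadjusted p under 0.05. The F test over the 3 types called 2 of 34 (5.88%), Prkcb and Ptpn6, where 8.33% of all genes were called. The shares of members called against MCL and in the F test were thus near those of all genes. Each test was limma's on log2 signals with Benjamini-Hochberg adjustment over all 20177 genes, and a gene counts as called at an adjusted p under 0.05. The PCL arrays serve in both PCL comparisons, so those are not independent of each other.

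**Figure D1:**
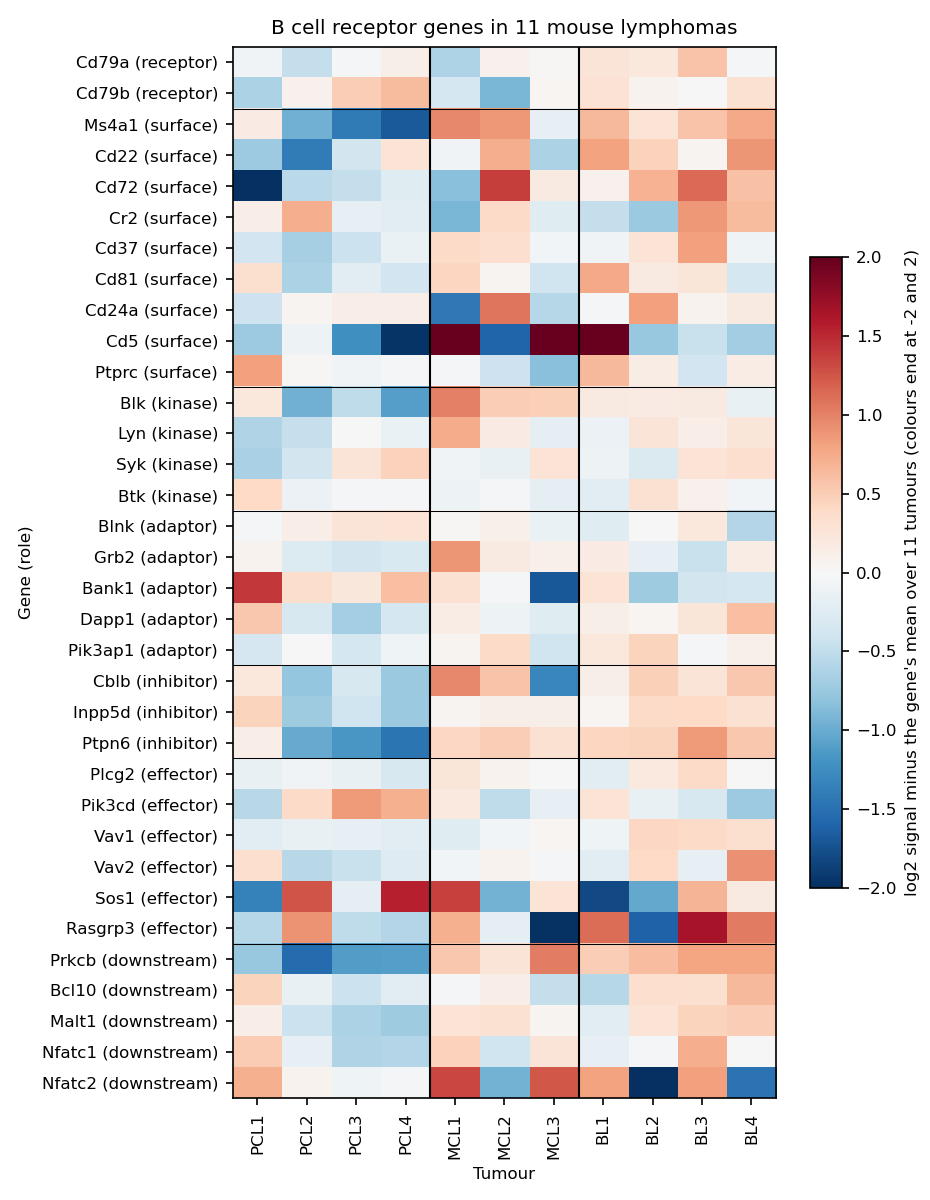
Colour gives each gene's log2 signal minus its own mean over the 11 tumours (scale ends at -2 and 2), with genes in rows by role and tumours in columns by type. Prkcb is below its mean in all 4 PCL and above it in all MCL and BL tumours, while Cd79a and Cd79b show no such split.

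Many members leaned the same way without passing the test. The median difference of the 34 genes was -0.24 (log2) for PCL against MCL, where the median of all genes was -0.02. For PCL against BL it was -0.41 against 0.09 for all genes, and for MCL against BL -0.17 against 0.05. The mean was lower in PCL than in MCL for 22 of 34 genes (51.5% of all genes), lower in PCL than in BL for 26 of 34 (41.6% of all genes), and lower in MCL than in BL for 25 of 34 (46.5% of all genes). Another scaling of the arrays moved the last of these counts most: it ranged from 20 with the authors' value table to 29 with each array's median as the reference. Without MCL3 that count was 18 of 34. Without adjustment, 9 of 34 genes (26.5%) had p under 0.05 for PCL against MCL, where 24.3% of all genes did, and 8 of these 9 were lower in PCL (23.5%, against 14.4% of all genes). For PCL against BL 10 of 34 did (29.4%, against 17.6% of all genes), all lower in PCL, where 7.12% of all genes were. The first share was thus near that of all genes. The values of PCL and MCL tumours did not overlap for 6 of 34 genes (17.6%), Cd37, Blk, Plcg2, Prkcb, Ptpn6 and Grb2, all lower in PCL, against 22.9% of all genes in either direction and 13.7% in that direction. PCL and BL did not overlap for 6 of 34 genes, Ms4a1, Cd72, Cd37, Vav1, Prkcb and Ptpn6, all lower in PCL, against 11.1% of all genes and 4.45% in that direction. MCL and BL did not overlap for 1 gene, Blk (2.94%), higher in MCL, against 17.6% of all genes in either direction and 13.7% in that direction. Prkcb, Ptpn6 and Cd37 were the genes in both PCL sets.

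**Figure D2:**
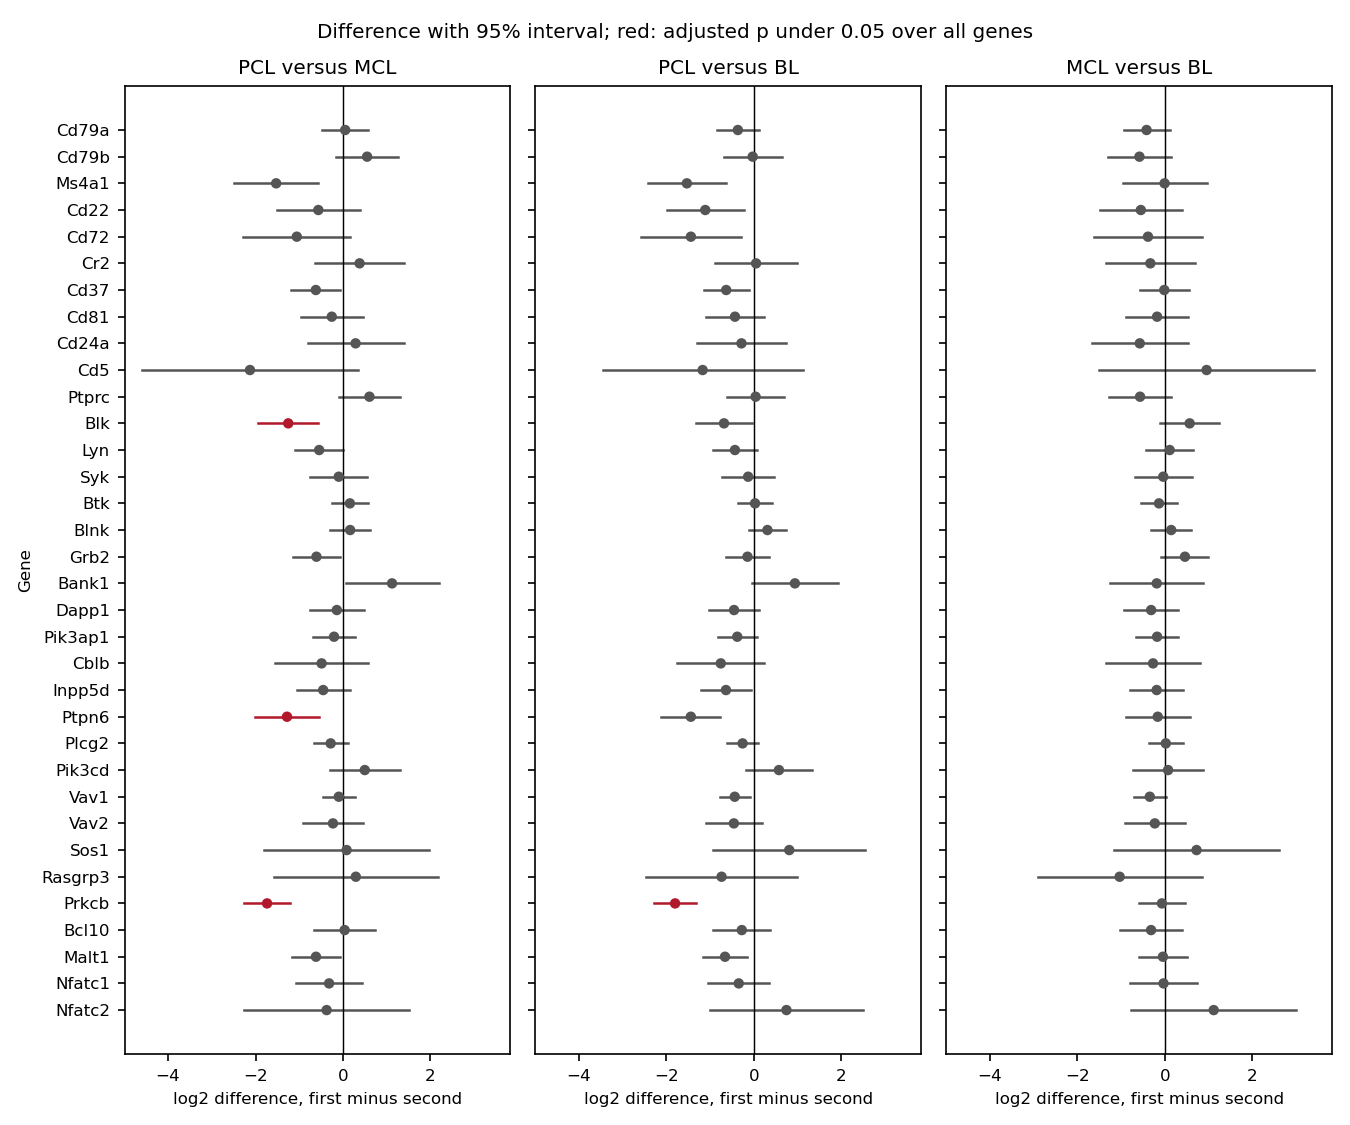
Points give the log2 difference of type means for each of the 34 genes and bars its 95% interval, in 3 panels for PCL minus MCL, PCL minus BL and MCL minus BL; red marks an adjusted p under 0.05. Prkcb is red in both PCL panels, Blk and Ptpn6 in the first, and no gene is red in the MCL versus BL panel.

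Prkcb encodes protein kinase C beta, which links the receptor to NF-kB. Signals below are log2 of the intensity relative to the 75th percentile of the same array, so 0 is the signal of that percentile, and they can be compared between tumours but not between genes. Prkcb stood at 2.97, 2.19, 2.63 and 2.64 in PCL1 to PCL4, at 4.28, 3.99 and 4.76 in MCL1 to MCL3 and at 4.22, 4.36, 4.53 and 4.53 in BL1 to BL4. Every plasma cell tumour lay below every other tumour, the highest PCL value being 2.97 and the lowest of the others 3.99. The type means were 2.61 ± 0.32 (SD, n = 4), 4.34 ± 0.39 (n = 3) and 4.41 ± 0.15 (n = 4). PCL was lower than MCL by a log2 difference of -1.74 (SE 0.23, a 3.33-fold difference, adjusted p = 0.004935) and lower than BL by -1.80 (SE 0.22, 3.49-fold, adjusted p = 0.01202). MCL and BL differed by -0.07, with a 95% interval that is in the plot of differences. Type accounted for 92.2% of the variance of Prkcb over the 11 tumours, the highest share among the 34 genes. A second Prkcb probe gave 2.89, 2.13, 2.51 and 2.45 in PCL, 3.91, 3.61 and 4.47 in MCL and 4.01, 4.02, 4.23 and 4.01 in BL, with the same order and no overlap. Without PCL2, the lowest of the plasma cell tumours, the difference from BL was -1.66 with an adjusted p of 0.0505, and no other tumour left out ended either call.

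**Figure D3:**
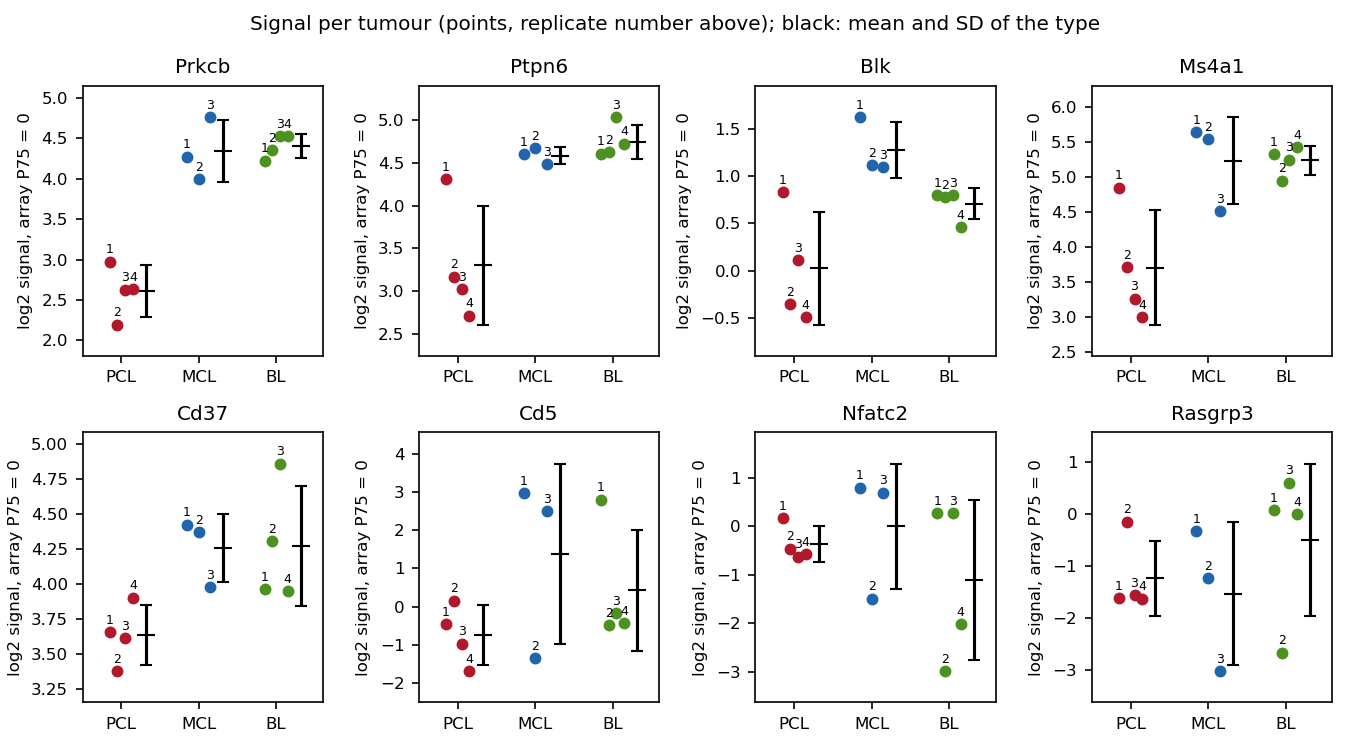
Points give the log2 signal of single tumours (replicate number above, the array's 75th percentile at 0) for 8 genes by type, and black bars the mean and SD of the type. Prkcb separates PCL from both other types, PCL1 lies nearest to the MCL and BL values for Ptpn6, Blk and Ms4a1, and Cd5, Nfatc2 and Rasgrp3 spread widely within a type.

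Ptpn6 encodes SHP-1, the phosphatase that inhibitory co-receptors such as CD22 and CD72 recruit. It stood at 4.31, 3.17, 3.02 and 2.72 in PCL1 to PCL4, at 4.60, 4.67 and 4.48 in MCL and at 4.60, 4.63, 5.03 and 4.72 in BL. All 4 plasma cell tumours lay below all others, but PCL1 lay close to the lowest MCL tumour and the other 3 well below. The PCL mean of 3.30 ± 0.70 (SD, n = 4) was lower than the MCL mean of 4.58 ± 0.10 (n = 3) by -1.28 (SE 0.33, 2.43-fold, adjusted p = 0.04708). Against the BL mean of 4.75 ± 0.20 (n = 4) the difference was -1.44 (SE 0.30, adjusted p = 0.06161), which did not pass the test. The call against MCL stood without PCL1 (-1.61, adjusted p = 0.002107) and was lost without any other single tumour, with adjusted p up to 0.126.

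The other inhibitors pointed the same way without passing. Inpp5d, the lipid phosphatase SHIP1, had means of 2.96 ± 0.55 in PCL, 3.41 ± 0.04 in MCL and 3.60 ± 0.17 in BL, and its differences of -0.45 and -0.64 had adjusted p of 0.340 and 0.228. Cblb, a ubiquitin ligase that limits receptor signalling, differed by -0.49 and -0.76 (adjusted p = 0.574 and 0.419), and MCL3 at -2.65 was the lowest of all tumours for it. A second, dim Cblb probe gave -0.05 and -0.11.

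Among the kinases, Blk was the one that passed a test. Its probe is shown because it is the only probe of the gene. It lies on chr14:63997333-63998470 of mm9, minus strand, where its 60 bases span 1138 genomic bases.
Blk probe: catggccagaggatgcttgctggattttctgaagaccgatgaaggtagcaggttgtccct
Blk, a SRC-family kinase of B cells, stood at 0.83, -0.36, 0.11 and -0.49 in PCL1 to PCL4, at 1.62, 1.11 and 1.09 in MCL and at 0.80, 0.77, 0.80 and 0.46 in BL. The MCL values lay above all others, and PCL1 lay just above the BL values while the other 3 plasma cell tumours lay below them. PCL was lower than MCL by -1.25 (SE 0.31, 2.38-fold, adjusted p = 0.0399). PCL minus BL was -0.68 (SE 0.28, adjusted p = 0.247) and MCL minus BL 0.57 (SE 0.31, adjusted p = 0.378), neither past the threshold. The call against MCL stood without PCL1 (-1.52, adjusted p = 0.005704) and without BL1, and was lost when any of the other 9 tumours was left out, with adjusted p up to 0.110. Lyn, the kinase that starts both activating and inhibitory signals, had means of -1.86 ± 0.28 in PCL, -1.31 ± 0.46 in MCL and -1.42 ± 0.17 in BL, with differences of -0.54 and -0.43 (adjusted p = 0.204 and 0.355). Syk and Btk, the kinases that act next, were not called: Syk differed by -0.10 and -0.13, Btk by 0.16 and 0.03 for PCL against MCL and BL. For Btk the 95% intervals ran from -0.26 to 0.57 and from -0.36 to 0.41. Type accounted for 3.00% of the variance of Syk.

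The receptor chains gave no call. Cd79a had means of 4.76 ± 0.26 in PCL, 4.71 ± 0.39 in MCL and 5.12 ± 0.25 in BL. Its difference between PCL and MCL was 0.05, with a 95% interval from -0.48 to 0.58, and between PCL and BL -0.37 (adjusted p = 0.427). Cd79b had means of 7.0 ± 0.57, 6.45 ± 0.47 and 7.03 ± 0.15, and PCL minus MCL was 0.55 (adjusted p = 0.323). The 4 plasma cell tumours differed for Cd79b, from 6.22 in PCL1 to 7.49 in PCL4, and overlapped both other types. A second Cd79a probe gave differences of 0.11, -0.32 and -0.43 for the 3 comparisons, near the 0.05, -0.37 and -0.42 of the first.

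Of the 9 surface proteins around the receptor, none passed a test, and the largest differences were those of Ms4a1, Cd72 and Cd5. Ms4a1 encodes CD20, a surface protein of mature B cells that is lost in plasma cells. It stood at 4.85, 3.71, 3.26 and 3.00 in PCL1 to PCL4, at 5.64, 5.55 and 4.51 in MCL and at 5.33, 4.95, 5.25 and 5.43 in BL. PCL lay below BL throughout and overlapped MCL through PCL1 and MCL3. The differences were -1.53 against MCL (SE 0.43, adjusted p = 0.0625) and -1.53 against BL (SE 0.40, adjusted p = 0.103). Without PCL1 both passed, at -1.91 (adjusted p = 0.009228 and 0.01188).

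Cd72, an inhibitory co-receptor, had means of 3.12 ± 0.80 in PCL, 4.18 ± 1.11 in MCL and 4.56 ± 0.43 in BL, with differences of -1.06 (adjusted p = 0.272) and -1.44 (adjusted p = 0.184). PCL1 at 1.94 was the lowest of all tumours and set much of the PCL mean, the other 3 plasma cell tumours lying at 3.39 to 3.69. Without PCL1 the differences were -0.66 and -1.05. Cd22, another inhibitory co-receptor, had means of 0.89 ± 0.70, 1.45 ± 0.68 and 2.00 ± 0.38, and PCL minus BL was -1.11 (adjusted p = 0.184). A second, dim Cd22 probe gave -0.10 for that difference. Cd37, a tetraspanin of mature B cells, ran from 3.37 to 3.90 in PCL, 3.98 to 4.42 in MCL and 3.95 to 4.86 in BL. PCL overlapped neither of the others, and its differences of -0.62 and -0.63 had adjusted p of 0.164 and 0.198. The second Cd37 probe gave -0.65 and -0.72.

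Cd5, a surface inhibitor found on T cells and on B-1 cells, split the tumours within types. It stood at 2.97, -1.35 and 2.51 in MCL1 to MCL3, at 2.81, -0.50, -0.18 and -0.44 in BL1 to BL4, and at -0.47, 0.15, -0.97 and -1.70 in PCL. MCL1, MCL3 and BL1 were high, and the other 8 tumours were low. The differences were -2.13 for PCL against MCL (SE 1.11, adjusted p = 0.272), -1.17 for PCL against BL (SE 1.03, adjusted p = 0.598) and 0.96 for MCL against BL (adjusted p = 0.722), so the spread within types was as large as the differences between them. T cells also express Cd5. Over the 15 T cell markers tested, the median of their signals relative to each marker's mean was 0.93 in MCL1 and 0.65 in BL1, the highest of the 11 tumours, but -1.03 in MCL3, the lowest. The 3 chains of the CD3 complex differed in MCL3: Cd3d stood at -4.03, Cd3e at -0.40, and Cd3g at -0.64, its highest value of the 11 tumours. The T cell markers' summed signal was 19.7 to 51.4 times the 75th percentile in MCL, 27.1 to 43.8 in PCL and 37.2 to 49.6 in BL, and MCL3 held the lowest of these sums. Cd2 was the brightest of these markers in every tumour but BL3, where Zap70 was, and ran from 3.18 in MCL3 to 5.15 in PCL4. The sums therefore mainly give the brightest markers and say little about the others. In RNA of whole tumours, fewer cells of a type and less RNA per cell cannot be told apart.

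The remaining surface genes varied less or without order. Ptprc, the phosphatase CD45, had means of 2.13 ± 0.43, 1.53 ± 0.41 and 2.09 ± 0.42 in PCL, MCL and BL. Cd81, a tetraspanin, had 3.43 ± 0.41, 3.69 ± 0.41 and 3.87 ± 0.45. Cd24a, a surface glycoprotein of B lineage cells, spread from 3.44 in MCL1 to 5.94 in MCL2. Cr2, the complement receptor CD21, was dim in all tumours, at -4.44 to -2.65, and its 2 probes differed in sign between PCL and MCL (0.38 and -0.63).

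The adaptors were mixed. Blnk, the scaffold of SYK and PLCG2, ran from 5.51 to 6.37 over all 11 tumours, with PCL minus MCL at 0.16 and PCL minus BL at 0.31 (adjusted p = 0.668 and 0.439). Grb2, which couples receptors to RAS activation, ran from 2.93 to 3.37 in PCL and from 3.41 to 4.18 in MCL, without overlap, and differed by -0.61 (adjusted p = 0.159). Its second probe gave -0.12. Bank1, a scaffold that binds LYN, was the member with the largest difference in the other direction. Its means were 2.45 ± 0.53 in PCL, 1.33 ± 1.07 in MCL and 1.51 ± 0.41 in BL, and PCL was above MCL by 1.12 (adjusted p = 0.184) and above BL by 0.94 (adjusted p = 0.308). PCL1 held its highest value, 3.21, and MCL3 its lowest, 0.11, and without MCL3 the first difference was 0.51. Dapp1 and Pik3ap1, adaptors of the PI3-kinase arm, differed by -0.14 and -0.20 against MCL and by -0.45 and -0.38 against BL.

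Among the enzymes that carry the signal on, 0 of 6 passed in any comparison. Plcg2, the phospholipase of the pathway, ran from 4.82 to 5.06 in PCL and from 5.15 to 5.39 in MCL, without overlap but with a difference of only -0.28 (adjusted p = 0.358). Vav1, an exchange factor for RAC, was nearly the same in the 4 plasma cell tumours (4.08 to 4.14, SD 0.03) and lay at 4.20 to 4.70 in BL, with a difference of -0.44 (adjusted p = 0.182). Pik3cd, the PI3-kinase subunit of lymphocytes, differed by 0.50 and 0.57 (adjusted p = 0.430 and 0.417) and Vav2 by -0.23 and -0.46. For Pik3cd, PCL1 at 2.21 lay below the other 3 plasma cell tumours. The other Pik3cd probes gave larger differences, 0.86 and 0.99 against MCL and 0.71 and 0.71 against BL. For Sos1, a RAS exchange factor, the signals of -8.21 to -4.86 were mostly not well above background, and no fold is given.

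Rasgrp3, a RAS exchange factor activated by diacylglycerol, again split within types. It stood at -1.61, -0.14, -1.56 and -1.63 in PCL, at -0.33, -1.23 and -3.03 in MCL, and from -2.67 in BL2 to 0.61 in BL3. PCL2 stood apart from the other plasma cell tumours, and MCL3 and BL2 were the lowest of all. Its 3 differences were 0.29, -0.74 and -1.03, with SE of 0.84, 0.78 and 0.84.

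Downstream of the receptor, Prkcb was the one gene that passed. Malt1, the protease of the NF-kB branch, had means of 1.05 ± 0.38, 1.66 ± 0.13 and 1.71 ± 0.32, and its differences of -0.62 and -0.66 had adjusted p of 0.162 and 0.177. Bcl10, its partner, differed by 0.04 and -0.28. Nfatc1, a calcium-dependent transcription factor, differed by -0.32 against MCL (adjusted p = 0.611) by its brightest probe and by -2.01 by a second one, which stood at 2.28, 0.71 and 1.68 in MCL and at 0.32, -0.01, -0.94 and -1.19 in PCL. The probes of Nfatc1 thus disagreed on the size of the difference, though not on its direction. Nfatc2, a second such factor, stood at 0.17, -0.46, -0.63 and -0.57 in PCL, at 0.80, -1.49 and 0.70 in MCL and at 0.27, -3.0, 0.27 and -2.01 in BL. MCL2, BL2 and BL4 were low and the other tumours of their types high, and the largest difference, MCL minus BL at 1.12, had an adjusted p of 0.561.

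PCL1 differed from the other plasma cell tumours across the set. It was the highest of the 4 for 17 of the 34 genes, among them Ptpn6, Blk, Ms4a1, Malt1 and Inpp5d, and the lowest for 9, among them Cd79b, Cd72 and Syk. PCL4 was the highest for 9 and the lowest for 9. These counts were not taken over all genes, so they may not be particular to the members. The median of the members' signals relative to each gene's mean was 0.01 in PCL1 against -0.22, -0.34 and -0.22 in PCL2, PCL3 and PCL4. It ran from -0.04 to 0.22 in MCL and from 0.12 to 0.26 in BL. Without PCL1, 6 genes were called in each PCL comparison and in the F test, Prkcb, Ms4a1, Blk, Inpp5d, Malt1 and Ptpn6, all lower in PCL. That is 17.6% of the members, where 12.1% of all genes were then called for PCL against MCL, 5.26% for PCL against BL and 13.9% in the F test. The median of the 15 macrophage and monocyte markers tested moved with the same split, though not every marker did. Their median relative to each marker's mean was -0.96 in PCL1 and 2.73, 1.28 and 1.67 in PCL2 to PCL4, with 0.33, -1.86 and -1.46 in MCL and -0.54, -0.51, 0.03 and -0.54 in BL. Their summed signal was 6.81 to 40.1 times the 75th percentile in PCL, 3.25 to 28.7 in MCL and 6.38 to 19.5 in BL, and all 15 were above background in every PCL array. Mpeg1 alone, at 4.45 in MCL1 and 1.97 in PCL1, made up most of the 28.7 of MCL1 and of the 6.81 of PCL1. It went against the split, being higher in PCL1 than in PCL2 to PCL4 (0.56 to 1.55). Marco in PCL1 (-0.33) lay above PCL3 (-0.41). 2 of the 15 macrophage and monocyte markers were called higher in PCL than in MCL, as were 2.13% of all genes. The 13 granulocyte markers gave medians of -1.54 in PCL1 and 2.85, 0.185 and 0.903 in PCL2 to PCL4. Their summed signals were 102 to 118 in PCL, 84.3 to 101 in MCL and 87.7 to 104 in BL. Csf3r alone made up most of this sum in every tumour, and it ran only from 6.37 in BL2 to 6.81 in PCL3. The granulocyte sums therefore mainly give the signal of Csf3r and say little about the other granulocyte markers. The median difference between PCL and MCL was 2.45 for the macrophage, 1.21 for the granulocyte and 1.14 for the stromal and endothelial markers. The part of these markers in the lower signal of receptor genes was not tested.

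B lineage markers were present throughout, and plasma cell markers with 1 exception. All 10 B lineage markers tested were above background on every array of each type, and 3 of them, Cd79a, Cd79b and Ms4a1, belong to the genes described here. 1 of the 10 was called lower in PCL than in MCL (4.65% of all genes were) and 1 lower in PCL than in BL (0.203%). 0 were called higher in PCL, and 0 were called between MCL and BL (6.45%). Of the 9 plasma cell markers, 8 were above background on every array of each type. The exception, Tnfrsf17, stood at -6.29 in PCL3 and -6.77 in PCL4. The lowest signals well above background on those arrays were -4.99 and -5.32. The summed signal of the 9 plasma cell markers was 42.7 to 74.0 in PCL, 43.9 to 52.7 in MCL and 34.5 to 53.6 in BL, and 0 of the 9 were called in any comparison. Mzb1 was the brightest of the 9 in every tumour, from 3.93 in MCL2 to 5.69 in PCL4, and weighed most in these sums. The median of the 9 markers relative to each marker's mean ran from 0.129 to 0.621 in PCL and overlapped MCL, where MCL1 stood at 0.494.

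The members on chromosome 7 were Cd79a, Cd22, Cd37, Cd81 and Prkcb. All 5 had lower means in PCL than in BL (41.6% of all genes), with a median difference of -0.63, and 4 of 5 in PCL than in MCL (51.5% of all genes), with a median of -0.56. All 5 also had lower means in MCL than in BL (46.5% of all genes), with a median of -0.177. 1 of the 5, Prkcb, was called in each PCL comparison. The lean was not particular to chromosome 7. On chromosome 19, 3 of 4 members were lower in PCL than in MCL and than in BL, with medians of -0.866 and -0.776. Both members on chromosome 18 were lower in each PCL comparison. On chromosomes 1, 3 and 17, 2 of 3 members each were higher in PCL than in MCL.

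The rest of the pathway comprised 91 further genes tested of 95 listed. 2 were lower and 1 higher in PCL than in MCL, where 6.78% of all genes were called. 0 were called in PCL against BL, against 0.639% of all genes, and 1 was lower and 3 higher in MCL than in BL, against 6.45% of all genes. Their median differences were -0.00295, -0.182 and -0.205 for the 3 comparisons. Itpr2, a calcium channel that opens after PLCG2 acts, stood at 2.44, 0.90, 0.71 and 0.57 in PCL, at 3.60, 3.35 and 3.44 in MCL and at 3.32, 2.84, 3.69 and 2.91 in BL. PCL lay below both others without overlap, at -2.31 against MCL (adjusted p = 0.0158) and -2.04 against BL (adjusted p = 0.053). The call of Itpr2 against MCL was lost without PCL2 (adjusted p = 0.0549) and without PCL4 (0.0522). Csk, the kinase that restrains LYN and BLK, was highest in MCL: PCL was lower by -0.63 (adjusted p = 0.0417) and MCL was above BL by 0.655 (adjusted p = 0.0344). The first Csk call stood without PCL1, BL1, BL2 or BL4 and was lost without any of the other 7 tumours (adjusted p up to 0.107), and the second stood without PCL1 or BL2 and was lost without any of the other 9 (up to 0.112). Each was also lost in 5 of the 11 other processings. Dok2, an adaptor that restrains RAS, was higher in PCL than in MCL by 1.91 (adjusted p = 0.018), a call lost without PCL4, MCL2 or MCL3 (adjusted p = 0.051, 0.0653 and 0.058).

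In MCL against BL, Ifitm3, an interferon-induced membrane protein, was higher by 2.75, Nfatc4 by 0.67, and Map3k7, the kinase TAK1, lower by -0.70. The call of Map3k7 was lost without MCL1 or MCL3 (adjusted p up to 0.0866). That of Ifitm3 stood only without PCL1, PCL4 or MCL2 (up to 0.0845 otherwise), and that of Nfatc4 only without PCL1 or BL3 (up to 0.106 otherwise). Of the 11 other processings, Map3k7 was lost in 5, Ifitm3 in 5 and Nfatc4 in 8, and the difference of Nfatc4 ranged from 0.13 with normexp to 0.72. Among differences that did not pass were those of Ptpn22 (-2.59), Bcar1 (2.55) and Fyn (2.47, well above background on 2 of 3 MCL arrays) for PCL against MCL. For PCL against BL, besides Itpr2, they were those of Bcar1 (2.88) and Ptpn22 (-2.03), and for MCL against BL that of Ebf1 (-1.84). Vav3, well above background on 2 MCL and 2 BL arrays, gave differences from 0.21 to 3.40 over the alternatives, and no single value is given. For Ptpn22, a phosphatase that restrains SRC-family kinases, PCL1 stood at 3.12 and PCL4 at -3.19.

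Of 20 genes tested that receptor stimulation is known to induce, 3 were lower in PCL than in MCL (4.65% of all genes were), 1 was lower in PCL than in BL (0.203% of all genes), and 0 were called between MCL and BL (6.45% of all genes). The medians of the 20 were -0.195, -0.659 and -0.373. Ccnd2, cyclin D2, stood at 0.89, 0.35, -1.18 and -1.70 in PCL, at 3.26, 2.57 and 2.22 in MCL and at 2.56, 2.94, 3.07 and 3.77 in BL. PCL lay below both other types without overlap, at -3.10 against MCL (adjusted p = 0.0188) and -3.49 against BL (adjusted p = 0.0324). Ccnd2's call against MCL was lost without PCL3, MCL1 or MCL2 (adjusted p = 0.0522, 0.0592 and 0.0573), and that against BL without PCL2, PCL3, PCL4, BL2, BL3 or BL4, with adjusted p up to 0.103. Both were also lost with the arrays of the 2 types only (0.0557 and 0.0536). Nfkbid, an inhibitor of the NF-kB family, was lower in PCL than in MCL by -1.50 (adjusted p = 0.0384), and Bcl2a1d, a survival gene, by -3.13 (adjusted p = 0.0461). The call of Nfkbid stood without PCL1, BL1, BL2 or BL4 and was lost without any other tumour (adjusted p up to 0.107). That of Bcl2a1d stood without PCL1, MCL2, BL1 or BL4 and was lost without any other tumour (up to 0.123). Of the 11 other processings, Nfkbid was lost in 4 and Bcl2a1d in 3. Bcl2a1d belongs to a family of near-identical genes that can share probe signal, so its value is uncertain. Cd83 (-1.81), Egr2 (-2.01 against BL), Egr3 (-1.02, well above background on 2 of 3 MCL arrays) and Cd69 (-1.54, both MCL against BL) did not pass.

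How firmly each call stood differed between the genes. Prkcb was called against MCL under all 22 alternative settings, with differences from -2.01 to -1.53, and against BL under 21 of 22. Ptpn6 and Blk lost their call against MCL in 14 and 13 of 22 settings, without a change of direction.

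**Figure D4:**
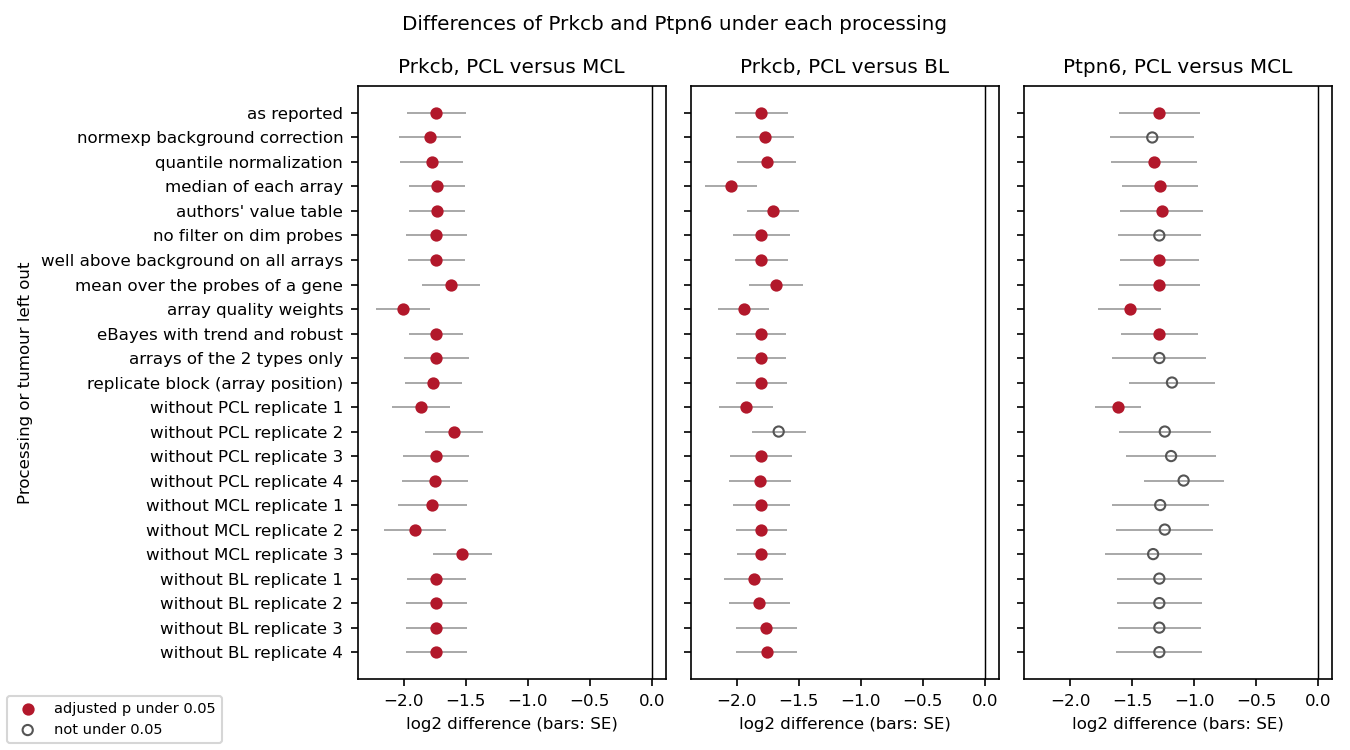
Points give the log2 difference of Prkcb (PCL minus MCL, PCL minus BL) and Ptpn6 (PCL minus MCL) as reported, under 11 other processings and with each of the 11 tumours left out, bars give the SE, and filled points have an adjusted p under 0.05. All points lie below 0; Prkcb is filled throughout except without PCL2 against BL, and Ptpn6 is open under 14 of the 22 alternatives.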

How the data were processed

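RNA of 4 plasma cell, 3 mantle cell and 4 Burkitt lymphomas was hybridised to Agilent one-colour arrays, 1 array per tumour and 0.2 micrograms of RNA each, with integrity numbers of 8 to 10 per the labels. The deposited scanner files hold the processed signal of each spot, an intensity that, per the file headers, the authors' Agilent software (Feature Extraction 10.7.3.1) gave without scaling between arrays. The authors' deposited value table holds log2 values with column medians of 7.25 to 7.26 and was used as an alternative. On each array 55.5% to 62.8% of 43020 spots were well above background, 21.5% to 29.2% held a substitute value for a signal not above background, and 0 were saturated. The number of arrays limits the precision: the median SE of a member's difference was 0.292 to 0.315 (log2).

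The log2 signal minus each array's 75th percentile (an intensity of 1067 to 1632) was taken without flagged spots. Spots of a probe were averaged, a probe was kept where 3 or more arrays had it well above background (25296 probes), and the brightest probe stood for a gene (20177 genes). limma 3.58.1 in R 4.3.3 fitted a mean per type over all 11 arrays (8 residual degrees of freedom), with Benjamini-Hochberg adjustment over all genes and a threshold of 0.05. The script was tested on simulated data. Groups came from the tumour origin in the labels. The design text numbers the mantle cell tumours to 4 and counts 3, and 3 were analysed here. Replicate numbers are array positions on a slide.

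The 34 genes, the pathway and marker lists and the rule for named genes were chosen with earlier results of these data known. By that rule, values in every tumour are given for called members and for the 3 members with the largest difference in each comparison. Other members are given by means and ranges, and of the other lists the called genes and the 3 largest differences are named. Alternatives were normexp background correction, quantile and median scaling, the authors' value table, other filters and probe rules, array quality weights, trend and robust variance, 2 types only, a replicate block and leaving out each tumour. Probe positions are those of the array design (mm9), promoters those of RefSeq (GRCm38.p6).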

Additional observations from a re-analysis of the deposited data

Results flagged for a closer look

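A single tumour stood far from the others of its type for 7 of the 68 gene and type groups tested, by Dixon's criterion for groups of 4 (the 3 mantle cell tumours were not tested). Chance flags about 1 in 20 groups. 4 of the 7 were in PCL1. In PCL1, Cd72 stood at 1.94, below the 3.39 to 3.69 of the other plasma cell tumours, and Cd24a at 4.45, below their 4.92 to 5.01. Ptprc in PCL1 stood at 2.77, above their 1.87 to 1.97, and Btk at 3.57, above their 3.05 to 3.13. In PCL2, Rasgrp3 stood at -0.14, above the -1.63 to -1.56 of the other 3. In BL1, Cd5 stood at 2.81, above the -0.50 to -0.18 of the other Burkitt lymphomas. In BL4, Blk stood at 0.46, below the 0.77 to 0.80 of the other 3.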

How the results depend on the processing

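Of the 36 differences recomputed under the alternatives (genes called or among the 3 largest of their list), none changed direction under those that could be run, and the differences of Prkcb stayed between -2.01 and -1.53 against MCL and between -2.05 and -1.66 against BL. The number of members called moved more. Leaving out 1 tumour gave 1 to 6 members for PCL against MCL, 0 to 6 for PCL against BL (6 without PCL1, 0 without PCL2) and 1 to 6 for the F test. Array quality weights, which gave PCL1 the lowest weight (0.382), called 7 members of 34 in each of these 3, where 21.7%, 10.9% and 23.5% of all genes were called. For PCL against MCL, 1 member (Prkcb) was called with normexp background correction, with no filter on dim probes and with the arrays of the 2 types only. For PCL against BL, 3 were called with median scaling. For the F test, 1 was called with normexp and with no filter. MCL against BL gave 0 members under every alternative. The replicate block, which treats the array position as a pairing, called 1 member in each PCL comparison, 0 for MCL against BL and 1 in the F test, and ended both Ccnd2 calls (adjusted p = 0.0682 and 0.0745). Correlations of the deviations of same-numbered tumours ran from -0.05 to 0.17 and were mostly above 0. Those of differently numbered tumours ran from -0.24 to 0.17 and lay on both sides of 0. The numbers were not taken to pair the tumours in the fit as reported, and whether array position acts on the signals was not tested. The causes were not tested, beyond that fewer arrays or more genes entered the fits so named.

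Some scalings moved the median of all genes: for PCL against MCL, PCL against BL and MCL against BL it was 0.17, 0.12 and -0.12 with normexp, and -0.02, -0.16 and -0.20 with median scaling. The median SE of a member's difference was 0.292 to 0.315, and differences several times their SE did not pass (Ms4a1 -1.53 with SE 0.43, Ptpn6 -1.44 with SE 0.30). Signals near background, as for Sos1, have no reliable ratio.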
